A study of Mus musculus with 11 samples.

Results

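Interferon-stimulated genes are the genes that cells switch on after an interferon binds its receptor, and their RNA was measured in 3 regions of the mouse testis. A list of 39 such genes was drawn up by name, and 37 of them were read, each by 1 probe set that carries that gene symbol alone, among 18194 genes read in the same way. Isg15 and Ifi44 were not analysed here. Where a gene had several probe sets, the one with the highest mean log2 signal was taken, without regard to the regions.

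The regions were the rete testis (RT), the Sertoli valve (SV) and the convoluted seminiferous tubules (ST) of 7-week-old W/Wv mice, with 3, 4 and 4 arrays. W/Wv animals carry mutations of the receptor gene Kit that deplete the germ cells, and every group carried them, so no region of a testis with full spermatogenesis was compared. RT is a network of channels lined by simple epithelium that collects the fluid of the tubules, and SV is the short stretch of modified Sertoli cells at which a tubule opens into it. Each array was a pool of 20 testes, so the spread between arrays is a spread between pools and hides that between animals. All testes had received trypan blue through the efferent ducts before pieces were cut by hand, and no testis without this injection was part of the series.

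The epithelia were checked by their markers. Counts here are of genes called by the rule given below, adjusted p under 0.05 and over 2-fold. RT was called higher than ST for 11 of 14 rete testis epithelium markers, where 12.5% of all genes were. SV was called higher than ST for 10 of the 14, where 2.39% of all genes were. RT was called lower than ST for 11 of 19 Sertoli cell markers, where 7.34% of all genes were. By direction alone, 13 of the 14 lay above 0 in RT against ST, and 1 of the 19 did. Of 11 efferent duct and epididymis markers, 6 were also called higher in RT, including Foxj1. Log2 fold changes are given here and below ± their standard error, and that of Foxj1 was 6.10 ± 0.43. The pieces thus carry RNA of several cell types in unequal parts. In such bulk samples fewer cells of a type and less RNA per cell cannot be told apart. Among the SV arrays, replicate 3 had the weakest rete testis marker signal. Its median was 1.99 above the ST mean on the log2 scale, against 2.82 to 3.60 in the other SV arrays. That array also had the lowest summed SV signals of macrophage (29103), endothelium (3648), lymphatic (2255), fibroblast (33290) and Leydig cell (28088) markers. It was lowest too for T and NK cell and efferent duct markers, and highest for Sertoli cell markers (189202). It was not the lowest for B cell, germ cell or smooth muscle markers.

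Viral RNA in a cell is sensed by helicase-like proteins such as RIG-I and MDA5, which leads to transcription of the type I interferon genes. Type I and type III interferons act through receptors and Janus kinases on a complex that holds STAT2 and IRF9 and binds the interferon-stimulated response element (ISRE) of target genes. Interferon gamma acts through the gamma-activated site (GAS). The targets include RNA sensors, enzymes that block translation or viral replication, membrane proteins that hinder viral entry or release, and the parts of the cell that cut and load peptides for MHC class I. Epithelia that face a lumen, and testicular macrophages, Sertoli cells and Leydig cells, are known to express such genes at rest or on induction.

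Both elements have short cores that were looked for in the promoters. RefSeq windows of the build GRCm38.p6, from 250 bases before to 50 bases after a gene's start, held 30 of the 39 genes. Mx1, Mx2, Dhx58, Oas2, Zbp1, Rtp4, Ifi27, Usp18 and Parp14 had no entry. The ISRE core was written as GAAA, 2 bases of any kind and GAAA again, and the GAS core as TTCNNNGAA, each searched on both strands. The ISRE core stood in the windows of 15 of the 30 genes, against 3.44% of all 32851 windows. For the GAS core it was 8 of 30, or 26.7%, against 8.30% of all windows. A gene counted if any of its windows held the core, and the 30 genes had 34 windows. The shares of all windows count single windows, so the 2 kinds of share differ in unit. Both cores stood in 4 genes, and they overlapped each other in Bst2 and Ifitm3. Among genes called higher in RT than in ST, as defined below, 3 of 9 with a window held the ISRE core, and among measured genes that were not called it was 11 of 19.

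The stretches below are from the genes called in RT with the largest change among those that hold an ISRE core, with Ifit1, a gene near Ifit3 on the same chromosome that was not called, and Psmb8, a called gene with a GAS core. The latter 2 were chosen after their values were seen. Bases of the core are in capitals, 5′ to 3′ on the strand of the gene.
Ifitm2: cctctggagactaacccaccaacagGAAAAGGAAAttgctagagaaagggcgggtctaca
Ifitm3: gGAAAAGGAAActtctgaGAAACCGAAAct
Ifit3: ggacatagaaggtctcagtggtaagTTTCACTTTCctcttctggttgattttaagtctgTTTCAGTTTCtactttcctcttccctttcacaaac
Ifit1: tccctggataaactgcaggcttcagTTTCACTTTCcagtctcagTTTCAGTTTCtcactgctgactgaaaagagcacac
Psmb8: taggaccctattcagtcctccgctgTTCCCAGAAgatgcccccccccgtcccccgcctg

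The Ifitm2 stretch lies at chr7:140955973-140956032 on the minus strand, and its core begins 46 bases before the start. The Ifitm3 stretch lies at chr7:141010714-141010743 on the minus strand and begins at base 2 of the transcript, so both of its cores lie after the start. On the plus strand, Ifit3 is shown at chr19:34583348-34583441 and Ifit1 at chr19:34640760-34640838. Each holds the same pair of cores, on the opposite strand to the gene, in the same order. Psmb8 is shown at chr17:34198073-34198131 on the plus strand. A match is a run of letters and not a measured binding site, and no match says only that these letters were not in the window.

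**Figure D1:**
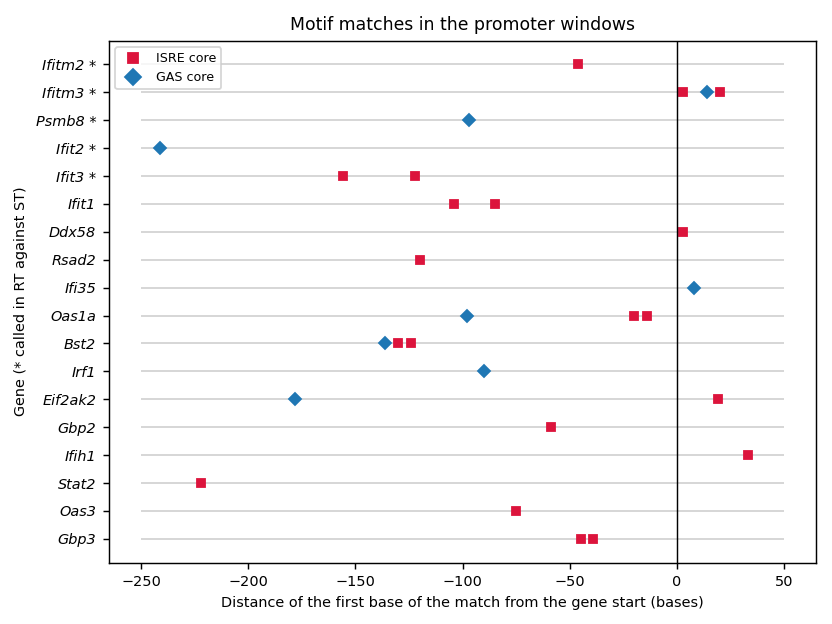
Positions of the ISRE core (squares) and the GAS core (diamonds) in the promoter windows of measured interferon-stimulated genes that hold one, as the distance in bases from the gene start (0) to the first base of the match. Genes are ordered by their log2 fold change in RT against ST from the top, and an asterisk marks those called; called genes and genes not called both hold cores, and most matches lie before the start.

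RT and ST were compared first, to ask which interferon-stimulated genes differ between the epithelium of the collecting channels and the tubules. A gene was called when limma gave a Benjamini-Hochberg adjusted p under 0.05 over all probe sets and a change of over 2-fold. In RT, 12 of the 37 genes were called higher than in ST and 1 was called lower. Over all genes read, 12.5% were called higher and 7.34% lower. The median log2 fold change of the 37 genes was 0.75, against 0.08 over all genes read and 0.13 over all probe sets, and 30 of 37 lay above 0. Relative to the median of all probe sets the list lay higher by 0.62, and by 0.63 after quantile normalization and 0.62 after each array was centred on its median. The count depended on this scaling, with 7 called higher after median centring. At any fold, an adjusted p under 0.05 was met by 18 genes higher and 1 lower, where 19.4% and 15.2% of all genes met it. An F-test over the 3 regions passed at an adjusted p under 0.05 for 15 of 37, against 30.4% of all genes.

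**Figure D2:**
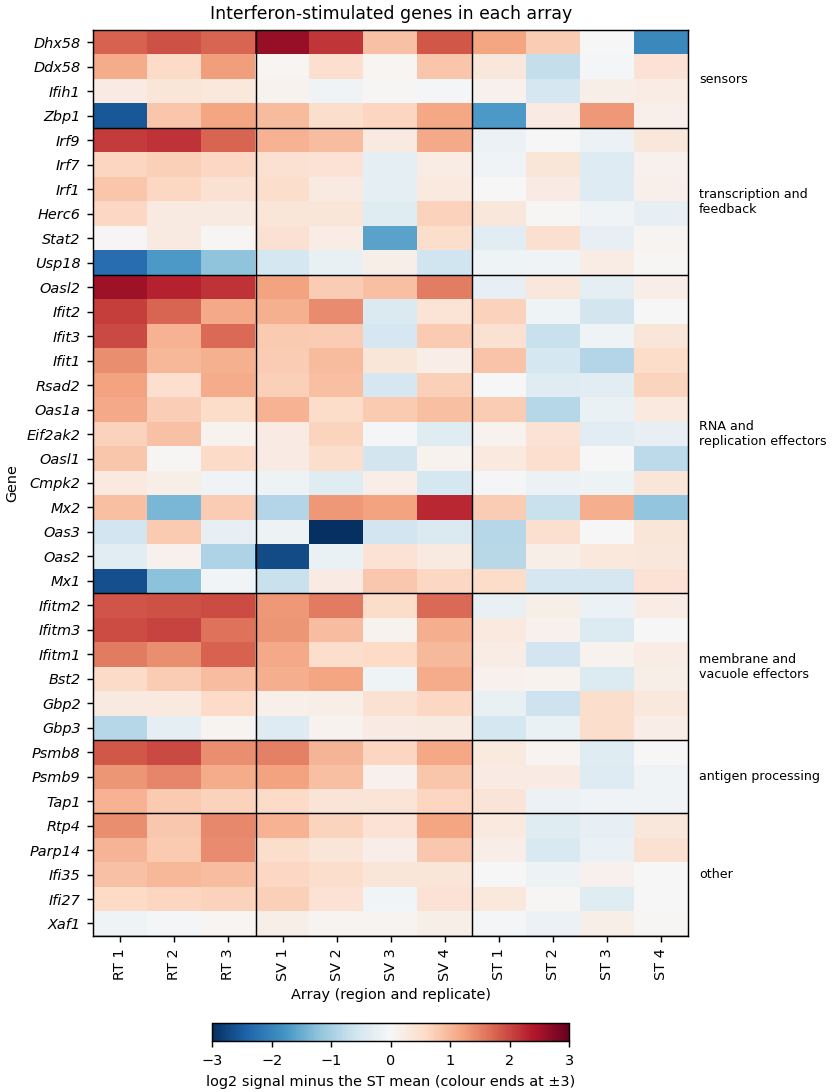
Log2 signal of each of the 37 interferon-stimulated genes (rows, by role) in each array (columns) minus the mean of the ST arrays, in colour from −3 to 3. Red rows in RT include Oasl2, Irf9, Ifitm2 and Ifitm3, with paler values in SV, while Usp18 is blue in RT and rows such as Mx1, Oas3 and Zbp1 scatter.

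The arrays were split into 2 sets, replicates 1 and 2 and replicates 3 and 4, which no sample label names. With region means removed, arrays of different regions correlated at -0.179 to -0.0761 between the sets. Within a set, same-numbered arrays had 0.069 to 0.190 and other numbers 0.070 to 0.178. Within replicates 1 and 2 the median of the 37 genes in RT against ST was 0.71, and within replicates 3 and 4 it was 0.84. In the first set 32 of 37 genes lay above 0 and in the second 30, where 53.1% and 55.2% of all genes did. Replicates 1 and 2 alone gave 13 genes called higher and 1 lower, with 12.9% and 7.49% of all genes called. Replicates 3 and 4 alone, which hold 1 RT array, gave 2 higher and 0 lower, with 3.62% and 3.17% of all genes called.

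Of the 4 cytosolic sensors, 1 was called. Dhx58, which encodes LGP2, a helicase that modulates RIG-I and MDA5, had signals of 124.0, 135.9 and 122.0 in RT and of 82.4, 61.6, 36.0 and 9.50 in ST. The RT arrays were alike and all above ST, where the signals fell far apart. Its log2 fold change was 1.81 ± 0.62 (limma adjusted p = 0.0483), and the call was lost under 18 of 25 alternatives, among them leaving out any of 8 arrays. The 2 dimmer probe sets of Dhx58 had -0.27 and 0.14. Ddx58, which encodes RIG-I, had 0.97 ± 0.29 (adjusted p = 0.0237), just under 2-fold. A second, dimmer probe set of the gene was called, at 1.52. Ifih1, which encodes MDA5, read 699.1, 761.0 and 730.5 in RT and 639.2, 414.8, 664.1 and 682.3 in ST (adjusted p = 0.225). Its RT arrays were all above its ST arrays, but the gap was small beside the spread in ST. Zbp1, a sensor of Z-form nucleic acid, had signals under 52 in every array and -0.17 ± 0.88.

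Among the factors that transmit or restrain the response, Irf9 was higher in RT and Usp18 was lower. Irf9, the DNA-binding partner of STAT2, had signals of 1142, 1197 and 899.2 in RT and of 237.8, 269.1, 236.0 and 340.8 in ST. No RT array came near an ST array. This was a log2 fold change of 2.0 ± 0.22 (limma adjusted p = 2.19e-05). Usp18 encodes a protease that removes ISG15 from proteins and also damps signalling at the type I receptor. Its signals were 80.5, 118.3 and 167.5 in RT against 353.4, 360.5, 452.5 and 398.3 in ST, at -1.74 ± 0.26 (limma adjusted p = 2.43e-04). All RT arrays were below all ST arrays, the opposite direction to the other called genes. Irf1, a factor that interferon gamma induces, read 1080, 922.7 and 821.5 in RT and 598.1, 719.0, 457.1 and 670.2 in ST. It rose by less than 2-fold, at 0.63 ± 0.20 (limma adjusted p = 0.0353), as did Irf7, the factor that amplifies type I interferon transcription, at 0.65 ± 0.22 (adjusted p = 0.0482). Stat2 and Herc6, a ligase for ISG15 in the mouse, did not pass, at 0.12 ± 0.46 and 0.39 ± 0.27.

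The list of RNA-binding and replication effectors was the longest, with 13 genes, and 3 were called. Oasl2, a relative of the enzymes that make the second messenger for RNase L, had the largest change of all 37 genes. It read 962.3, 814.2 and 740.9 in RT and 140.3, 209.1, 134.3 and 188.5 in ST, at 2.34 ± 0.22 (limma adjusted p = 8.41e-06). Every RT array was several times as bright as every ST array. Ifit2 and Ifit3 encode proteins that bind RNA and the translation machinery. Ifit2 had signals of 344.8, 273.6 and 177.9 in RT and of 130.3, 73.9, 55.2 and 82.1 in ST (1.66 ± 0.43, limma adjusted p = 0.0113). The call was lost without RT replicate 1. Ifit3 read 419.0, 219.6 and 346.9 in RT and 146.4, 66.8, 97.9 and 136.8 in ST (1.57 ± 0.38, adjusted p = 0.00736). For both genes all RT arrays were above all ST arrays. Ifit3 has a near-identical copy, Ifit3b, and whether its probe set reads both was not tested.

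The remaining 10 effectors of this kind were not called. Ifit1, shown above with the same pair of ISRE cores as Ifit3, had 1.14 ± 0.44 (limma adjusted p = 0.0795), and Rsad2, which encodes the antiviral enzyme viperin, had 0.94 ± 0.37 (adjusted p = 0.0821). Oas1a, Eif2ak2 and Oasl1 had 0.80, 0.56 and 0.47 on the log2 scale. Cmpk2, Mx2, Oas3, Oas2 and Mx1 lay between 0.11 and -1.31, and the probe sets of Mx1, the dynamin-like GTPase known from influenza resistance, and of Oas3 stayed under 54 and under 36 in every array. Of the 37 genes, 8 had a mean signal below the median of all values, 87.1, where the scatter between arrays is wide.

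Among the membrane and vacuole effectors all 3 measured Ifitm genes were higher in RT. They encode small membrane proteins that hinder the fusion of viruses with the cell. Ifitm2 had signals of 5276, 5394 and 5535 in RT and of 1234, 1603, 1273 and 1654 in ST, at 1.92 ± 0.23 (limma adjusted p = 3.99e-05). Ifitm3 had 9784, 10402 and 7803 in RT and 3104, 2756, 1922 and 2517 in ST, at 1.87 ± 0.25 (adjusted p = 1.05e-04). These were bright probe sets in every region, and the RT and ST arrays were well apart in both. Ifitm1 had 677.1, 608.1 and 788.0 in RT and 270.8, 154.8, 249.3 and 270.9 in ST (1.57 ± 0.23, limma adjusted p = 1.83e-04), again with no overlap. The Ifitm genes resemble each other in sequence, and whether their probe sets read each other's RNA was not tested. Bst2, which encodes tetherin, had 0.75 ± 0.28 (adjusted p = 0.0683). The guanylate-binding protein genes Gbp2 and Gbp3 had 0.38 ± 0.25 and -0.36 ± 0.28.

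For antigen processing, the immunoproteasome subunit genes Psmb8 and Psmb9 were higher in RT. Psmb8 read 710.2, 773.5 and 513.9 in RT and 239.4, 207.7, 153.2 and 192.6 in ST (1.74 ± 0.23, limma adjusted p = 8.96e-05). Psmb9 read 641.4, 716.8 and 555.5 in RT and 306.9, 305.0, 196.5 and 239.4 in ST (1.30 ± 0.24, adjusted p = 0.00138). In both genes the lowest RT array was above the highest ST array. Tap1, a subunit of the pump that carries peptides into the endoplasmic reticulum, rose by less than 2-fold (0.84 ± 0.19, limma adjusted p = 0.00506).

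Of the other 5 measured genes, Rtp4 and Parp14 were called. Rtp4, a Golgi chaperone that interferon induces, had signals of 559.3, 369.1 and 574.3 in RT and of 257.2, 164.9, 177.4 and 266.5 in ST (1.22 ± 0.25, limma adjusted p = 0.00252). Parp14, an ADP-ribosyltransferase, had 283.4, 240.9 and 369.7 in RT and 159.5, 101.8, 120.7 and 192.3 in ST (1.07 ± 0.26, adjusted p = 0.00734). RT was above ST in all arrays for both, but the Parp14 call was lost without RT replicate 3 or ST replicate 2. Ifi27, a mitochondrial protein gene, had 4287, 4451 and 4603 in RT and 3557, 2911, 2211 and 2845 in ST. It rose by less than 2-fold (0.65 ± 0.19, limma adjusted p = 0.0203), and so did Ifi35, by 0.93 ± 0.12 (adjusted p = 6.37e-05). Of the other probe sets of Ifi35, 1 was called, at 1.04 ± 0.21 (limma adjusted p = 0.00259), and 1 was just under 2-fold, at 0.94 ± 0.19. Xaf1 had -0.03 ± 0.13 on the probe set used and 0.80 on its other probe set (limma adjusted p = 0.00106).

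**Figure D3:**
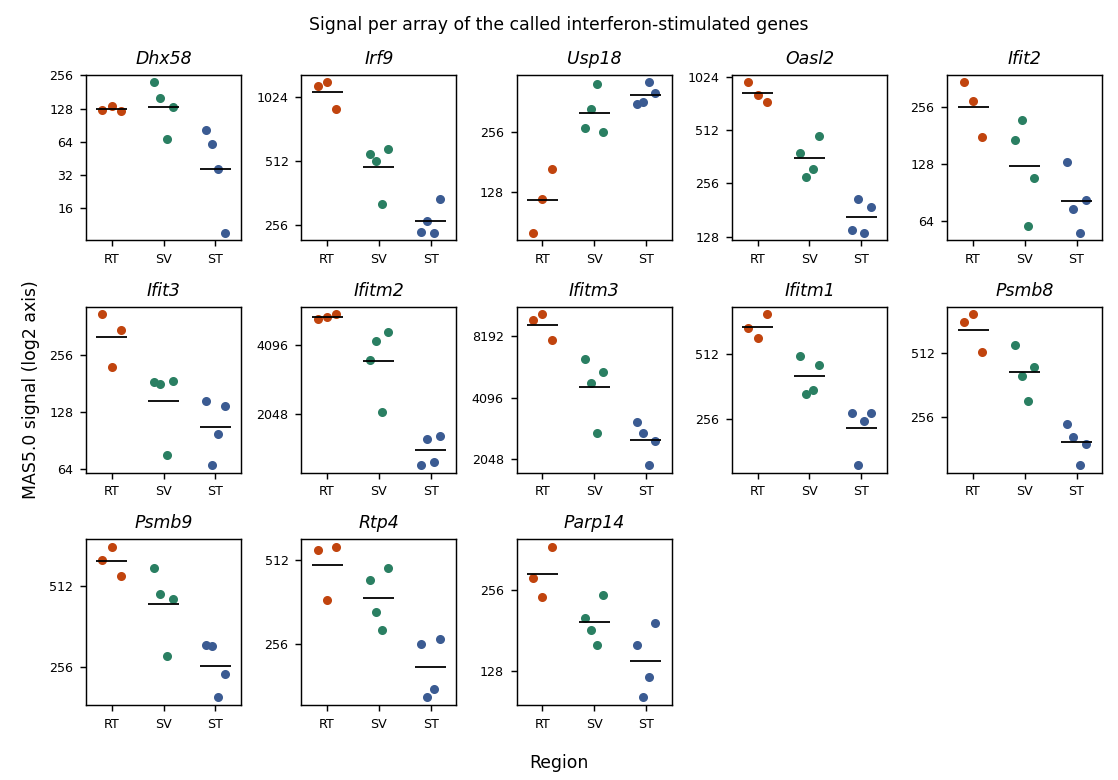
MAS5.0 signal (log2 axis) of each array for the 13 interferon-stimulated genes called in any comparison, by region, with the mean of the log2 signals as a line. RT lies above ST in every array for 12 genes and below it for Usp18, and SV mostly lies between them. All 13 were called in RT against ST, so their separation there follows largely from how they were chosen.

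SV was then set against ST, to ask whether the valve differs from the tubule it ends. In SV 3 of the 37 genes were called higher and 0 lower, where 2.39% of all genes were called higher and 0.0769% lower. Before adjustment, 14 genes were higher and 0 lower at a limma p under 0.05, where 12% of all genes were higher and 6.41% lower. The median log2 fold change was 0.46, against 0.02 over all genes read and 0.00 over all probe sets, and 31 of 37 genes lay above 0.

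Ifitm2 was the clearest, with signals of 3507, 4225, 2093 and 4643 in SV, all above ST, and a log2 fold change of 1.28 ± 0.21 (limma adjusted p = 0.00508). Oasl2 had 383.6, 279.6, 308.8 and 478.2 in SV, again with no overlap with ST, at 1.10 ± 0.21 (adjusted p = 0.0126). Psmb8 had 553.7, 398.2, 304.1 and 440.6 in SV, at 1.08 ± 0.21 (limma adjusted p = 0.0165). Its lowest SV array was above its highest ST array. Without SV replicate 1 or SV replicate 4 the count fell to 1, since the Oasl2 and Psmb8 calls were lost, and the Psmb8 call was also lost without ST replicate 3. Irf9 and Ifi35 passed the adjusted p but not 2-fold, with 0.84 ± 0.20 (limma adjusted p = 0.0482) and 0.47 ± 0.11 (adjusted p = 0.0399).

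Dhx58 had the largest difference in SV, 1.88 ± 0.58 (limma adjusted p = 0.130), with signals of 222.7, 161.2, 67.2 and 131.5. It was not called. Ifitm3 had 6317, 4824, 2742 and 5440 in SV and 0.86 ± 0.23 (adjusted p = 0.0778), and Ifitm1 had 505.2, 332.5, 347.6 and 455.7 and 0.81 ± 0.21 (adjusted p = 0.0667). The lowest Ifitm3 array of SV fell within the ST range, whereas the Ifitm1 arrays did not overlap.

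With SV replicate 3 left out, 7 of the 37 genes were called higher in SV than in ST, where 4.31% of all genes then were. That array was the lowest of SV for rete testis markers and for several other marker lists, as given above. The part of any cell type in this change was not tested. Ifitm3 (1.11 ± 0.17, limma adjusted p = 0.00234), Irf9 (1.03 ± 0.16, adjusted p = 0.00290), Bst2 (1.13 ± 0.16, adjusted p = 0.00145) and Dhx58 (2.21 ± 0.59, adjusted p = 0.0475) joined the 3 above. Bst2 had signals of 745.7, 792.7, 319.9 and 757.1 in SV, and replicate 3 was the one of SV that fell within the ST range of 263.0 to 393.6.

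**Figure D4:**
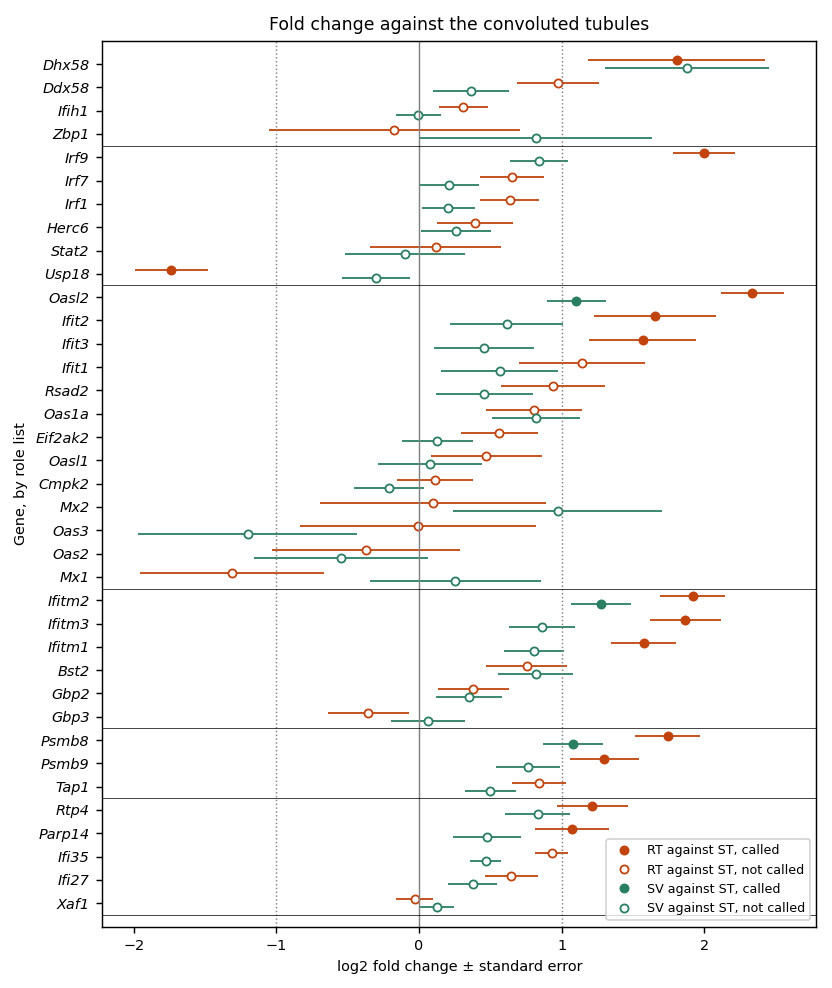
Log2 fold change ± standard error of the 37 interferon-stimulated genes in RT against ST and in SV against ST, by role, with called values filled and dotted lines at 2-fold. Oasl2, Irf9 and Ifitm2 stand farthest to the right in RT and Usp18 to the left. SV values are mostly smaller, and Oasl2, Ifitm2 and Psmb8 are the 3 filled points in SV.

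Between SV and RT, 1 of the 37 genes was called higher in SV and 3 lower, where 4.39% of all genes were called higher and 6.41% lower. Usp18, at 267.9, 331.8, 440.6 and 255.2 in SV, was above every RT array, with a log2 fold change of 1.44 ± 0.26 (limma adjusted p = 0.00248). Irf9, at 551.9, 511.0, 320.7 and 584.9 in SV, was below every RT array (-1.16 ± 0.22, adjusted p = 0.00325), and so was Oasl2 (-1.23 ± 0.22, adjusted p = 0.00257). Ifitm3 was also lower, at -1.0 ± 0.25 (limma adjusted p = 0.0165), on the 2-fold threshold, and its call was lost without RT replicate 1 or 2 or SV replicate 3. The Irf9 call was lost without SV replicate 3, and the count lower in SV was then 1, Oasl2. Without RT replicate 3 the count higher in SV was 2.

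The mean log2 signal was highest in RT, lower in SV and lowest in ST for 23 of the 37 genes, or 62.2%, against 32.8% of all genes. The study names as a limit that its SV pieces very likely included some RT cells, since the tubes are continuous. Rete testis markers had the same order, with sums of 38040 to 49713 in RT, 10503 to 16736 in SV and 5335 to 6579 in ST. Lymphatic endothelium markers also had it without overlap, with 6061 to 6956 in RT, 2255 to 4105 in SV and 1421 to 1800 in ST. The part of RT cells or of other cells in the SV values was not tested. For Irf9, Oasl2 and Ifi35 each step of this order passed the adjusted p, that of Ifi35 between SV and RT being -0.46 ± 0.12 (limma adjusted p = 0.0175), under 2-fold. For Ifitm3 the step between SV and RT was called and that between SV and ST was not, and for the other 9 genes called higher in RT the step between SV and RT was not called. The SV arrays were not alike: of the 12 genes called higher in RT, replicate 3 was the lowest SV array for 10 and replicate 2 for the other 2. Among all 2272 genes called higher in RT, replicate 3 was the lowest SV array for 68.2%.

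The rest of the pathway was read from lists of 112 further genes, of which 90 were measured. In RT against ST 20 were called higher and 2 lower, where 12.5% and 7.34% of all genes were. In SV against ST it was 4 higher and 0 lower, where 2.39% and 0.0769% of all genes were called. In SV against RT it was 2 higher and 6 lower, near or under the 4.39% and 6.41% of all genes. The same shares apply to each list below. For the interferon genes and for the receptors and kinases, the 1 gene called higher in RT lies near the share of all genes.

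Of 10 interferon genes with a probe set, Ifnz, which encodes the type I interferon limitin, was called. It read 234.2, 191.5 and 106.2 in RT and 29.1, 36.6, 60.7 and 26.5 in ST, at 2.22 ± 0.42 (limma adjusted p = 0.00156), and all RT arrays were above ST. The probe sets of the other 9, Ifnb1 and Ifng among them, had no called difference, and in RT the highest array of any of them was 46.1, below the median of all values.

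Of 9 receptor subunits and kinases, Ifnlr1, the specific chain of the type III receptor, was higher in RT at 1.11 ± 0.27 (limma adjusted p = 0.00722). Ifngr2, a chain of the interferon gamma receptor, was lower at -1.84 ± 0.24 (adjusted p = 7.93e-05), with 634.1, 1103 and 690.9 in RT and 3570, 3664, 2200 and 2138 in ST. Its RT arrays were all below its ST arrays. Ifnar1, a chain of the type I receptor, and Il10rb, the chain that type III interferon shares with interleukin-10, fell by less than 2-fold (-0.67 and -0.94).

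In the list of 14 genes for the induction of interferon, Tlr3 and Tlr4, which sense double-stranded RNA and lipopolysaccharide, and the kinase gene Ikbke were higher in RT, at 1.24 ± 0.21, 1.92 ± 0.34 and 3.48 ± 0.84. Tlr4 was also higher in SV than in ST, at 1.54 ± 0.31 (limma adjusted p = 0.0203). Among feedback genes and STATs, Socs3, an inhibitor of Janus kinase signalling that several cytokines induce, was higher in both RT and SV, at 1.16 ± 0.31 and 1.53 ± 0.29.

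Of 42 measured further interferon-stimulated genes, 12 were higher and 1 was lower in RT. Lgals3bp, which encodes a secreted glycoprotein, had 3.45 ± 0.32 (limma adjusted p = 7.19e-06), from 288.8–494.9 in ST to 3549–5228 in RT. The immunity-related GTPase genes Irgm2 and Irgm1 had 2.14 ± 0.32 and 1.76 ± 0.23, and Tor3a 1.82 ± 0.34. The lower gene was Daxx, a histone chaperone, at -1.85 ± 0.23 (adjusted p = 5.85e-05). In SV against ST, Lgals3bp (1.52 ± 0.30) and the GTPase gene Ifi47 (1.06 ± 0.20) were higher. Of 9 measured MHC class I genes, Nlrc5, the transactivator of the class I genes, and Tap2, the partner of Tap1, were higher in RT, at 1.96 ± 0.33 and 1.37 ± 0.23, and 0 of 9 were called in SV against ST.

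Markers of other cells moved with some of these values. Of 16 macrophage markers, Cd163 was higher in RT (1.24 ± 0.23) and Mpeg1 lower (-1.56 ± 0.14), and the summed signal of the list was 30345 to 37159 in RT, 29103 to 39638 in SV and 28838 to 33731 in ST. At any fold, 4 passed the adjusted p higher and 2 lower in RT against ST. There 13 of 16 lay above 0, with a median of 0.25, where 9828 of all 18194 genes lay above 0. In SV against ST 14 of 16 lay above 0, with a median of 0.31, and 2 passed the adjusted p higher at any fold. Adgre1, Csf1r and Cd68, which define macrophages, had 0.36, 0.39 and 0.05 in RT against ST. Of 13 T and NK cell markers 0 were called in RT against ST, at an unadjusted p under 0.05 also 0, but 12 of 13 lay above 0 with a median of 0.73. Their summed signals were 549.9 to 677.3 in RT and 526.8 to 670.9 in SV, without overlap with 439.7 to 487.9 in ST. These 13 probe sets were dim, on average below the median of all values, 87.1. Array medians over all probe sets also differed, at 99.6 to 110.4 in RT, 79.0 to 96.5 in SV and 65.8 to 85.1 in ST. Whether the sums differ beyond this was not tested. Of the endothelium markers 4 of 12 were higher in RT, led by Kdr at 3.85 ± 0.22, and 1 was lower, and their sum was 6111 to 9186 in RT, 3648 to 7783 in SV and 2648 to 4210 in ST. Of 5 lymphatic markers 3 were higher in RT, with sums of 6061 to 6956 in RT, 2255 to 4105 in SV and 1421 to 1800 in ST. Of 7 fibroblast markers 1, Col1a1, was called higher in RT (1.66 ± 0.18), 6 passed the adjusted p at any fold, and all 7 lay above 0 with a median of 0.90. Their sums were 50473 to 62482 in RT, 33290 to 46208 in SV and 29143 to 43749 in ST, with no overlap between RT and ST. The rete testis epithelium list had sums of 38040 to 49713 in RT, 10503 to 16736 in SV and 5335 to 6579 in ST. The part of macrophages and of T and NK, endothelium, lymphatic, fibroblast and rete testis cells in the values of the interferon-stimulated genes was not tested.

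**Figure D5:**
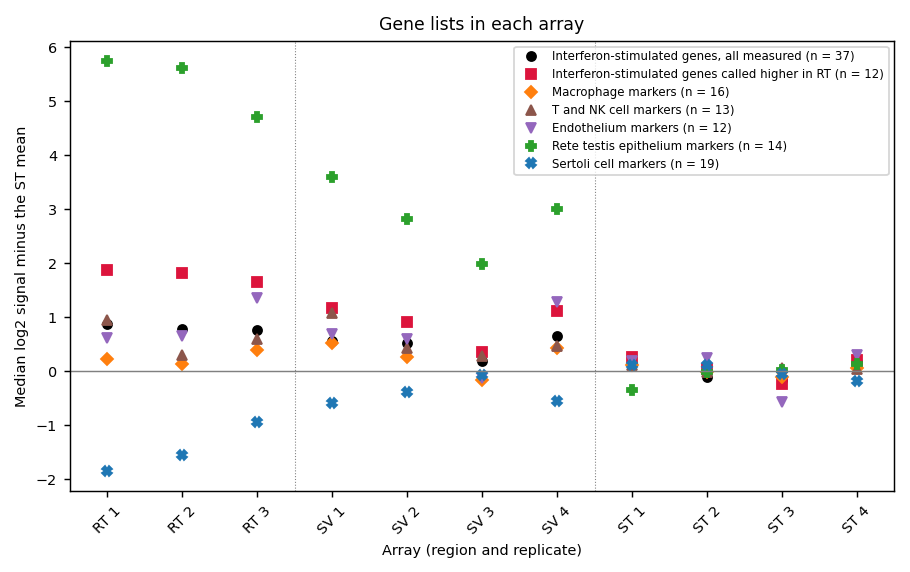
Median log2 signal minus the ST mean of 7 gene lists in each array, with the number of genes of each list in the key. The interferon-stimulated genes called higher in RT (squares), which were chosen for that difference, lie at 1.66 to 1.87 in RT and 0.35 to 1.17 in SV. All measured interferon-stimulated genes (circles) lie at 0.76 to 0.88 in RT and 0.19 to 0.65 in SV. Macrophage markers (diamonds) lie at 0.14 to 0.40 in RT and −0.17 to 0.52 in SV, and the rete testis markers reach 5.74.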

How the data were processed

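Intensity values were deposited by the authors as MAS5.0 signals on a linear scale, 1 per probe set of the Affymetrix Mouse Genome 430 2.0 array, scaled so that each array has a trimmed mean of 500.0. Median signals were 65.8 to 110.4 per array. RNA came from RNAlater-fixed pieces, by RNeasy Micro Kit and GeneChip 3′ IVT Plus, and the methods name a t-test at p under 0.05 with over 2-fold. Having 3 or 4 arrays a region limits the precision.

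Log2 signals of 45101 probe sets in 11 arrays, unfiltered and with nothing added, went into 1 linear model of region means (limma 3.58.1 under R 4.3.3, moderated with a trend on intensity). Adjusted p-values follow Benjamini and Hochberg and span every probe set. Probe sets with 1 symbol numbered 34958, with several 932 and with none 9211. Percentages of all genes are over 18194 genes with 1 probe set each. Signals are given per array, and errors of log2 fold changes are limma standard errors.

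The genes and lists were chosen with earlier results of these data known. All called genes, the brightest of each role list and, per pathway list and comparison, up to 4 called genes with the largest change are named, and others are given as counts. The sample labels call the arrays of 1 region biological replicates. No source states outright that no animal gave to more than 1 pool of a region. The p-values are read as measuring the spread between these arrays. No source used here says that same-numbered arrays share testes, and the numbers were not taken as pairs. Alternatives were the methods' t-test, no trend, other scalings and floors, replicate blocks, each set of replicates alone, probe-set averaging, no fold threshold and each array left out. Promoters were searched in Python 3.11.15 and figures drawn with matplotlib 3.10.9.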

Additional observations from a re-analysis of the deposited data

Results flagged for a closer look

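In 74 groups of 4 arrays (37 genes in SV and in ST), 10 had 1 array farther from the others than Dixon's 95% limit allows. Chance gives about 1 in 20 for independent groups. These groups are not independent, since the genes were read on the same arrays, and the rate over all genes was not computed. In SV replicate 3 the signals of Stat2 (30.5), Ifit3 (75.4), Rsad2 (69.7) and Bst2 (319.9) lay below those of the other SV arrays, whose nearest values were 108.4, 180.2, 161.4 and 745.7. Oas3 was low in SV replicate 2, at 1.61. In ST, replicate 2 was low for Ifih1 (414.8) and Ifitm1 (154.8), replicate 3 for Bst2 (263.0) and replicate 1 for Oas2 (39.7), and replicate 1 was high for Tap1 (241.9).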

How the results depend on the processing

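No direction reversed among 500 recomputed values of called genes, of which 422 kept their call and 78 lost it. The lack of reversals was largely fixed in advance. These genes were chosen for changes of over 2-fold in the same data. Several alternatives, such as the t-tests, no trend or leaving out an array of the third region, cannot alter the fold change. The methods' t-test with Benjamini-Hochberg adjustment gave 0 interferon-stimulated genes higher in SV against ST, 0 higher and 0 lower in SV against RT, 0 pathway genes higher in SV against ST, and 1 higher and 0 lower in SV against RT. The methods' t-test without adjustment gave 7 pathway genes higher in SV against ST. Without the intensity trend these were 1 gene and 0 pathway genes higher in SV against ST, and with a floor of 32 it was 1 pathway gene. After median centring, 7 genes were higher in RT against ST, 1 in SV against ST and 0 lower in SV against RT, with medians of 0.33 in RT against ST and -0.0808 in SV against RT. Pathway genes then were 12 higher and 6 lower in RT against ST and 1 lower in SV against RT. Quantile normalization gave a median of 0.56 in RT against ST and 2 pathway genes lower in SV against RT. With log2(signal + 32) the median was 0.64 and 1 gene was higher in SV against ST. Leaving out dim probe sets gave a median of 0.89, and averaging the probe sets of a gene gave 0.65 and 1 pathway gene higher in SV against RT. Without a fold threshold 31 pathway genes were higher and 7 lower in RT against ST, 5 genes were higher in SV against ST, and 5 genes and 13 pathway genes were lower in SV against RT. With the replicate number as a block (replicate block) the median in RT against ST was 0.83, and 5 genes and 10 pathway genes were lower in SV against RT. It added the calls of Ddx58 (1.13) and Rsad2 (1.09) in RT against ST, Dhx58 (1.88) in SV against ST, and Ifit2 (-1.01) and Ifit3 (-1.23) in SV against RT and took away the call of no other interferon-stimulated gene. Pairing by number was left unsettled. With region means removed, same-numbered arrays of different regions correlated at 0.069 to 0.190 over all probe sets. Other numbers of the same set of replicates correlated at 0.070 to 0.178. Between SV and ST alone, same-numbered arrays had 0.144 to 0.190, above the 0.070 to 0.142 of other numbers of the same set. Over the brighter probe sets, a measure chosen after seeing the data, the ranges over all regions were 0.277 to 0.670 and 0.168 to 0.477. Between SV and ST they were 0.513 to 0.670 and 0.168 to 0.391. RT replicate 3 there correlated best with SV replicate 4. The main fit uses no pairs. With the block, Ifitm3 in SV against ST had a limma adjusted p of 0.00216, still under 2-fold. Replicates 1 and 2 alone gave 5 genes and 8 pathway genes higher in SV against ST. Replicates 3 and 4 alone, where the lone RT array was taken to have the spread of the other groups, gave 2 genes higher and 0 lower and 2 pathway genes higher in RT against ST, a median of 0.84, and 0 in every count of SV against ST or RT. Leaving out each array in turn gave 10 to 15 genes higher in RT against ST, 1 to 7 higher in SV against ST, and 1 to 2 higher and 1 to 3 lower in SV against RT. Pathway genes were 20 to 23 higher and 2 to 3 lower in RT against ST, 1 to 6 higher in SV against ST and 2 to 8 lower in SV against RT. The medians were 0.62 to 0.83, 0.34 to 0.54 and -0.45 to -0.30. The cause of these differences was not tested. Dim probe sets limit Mx1, Oas3 and Zbp1.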
